A study of Bos taurus with 2 samples.

Results

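Genes of RNA interference and of double-stranded RNA sensing were examined in bovine embryos by RNA-Seq of a CDKN1C-siRNA-injected pool and a sham-injected pool, 1 library each. They were chosen by name as genes of small RNA processing and of double-stranded RNA sensing: DROSHA, DICER1, TARBP2, EIF2C2, ADAR, EIF2AK2, DDX58, DHX58, MAVS and IRF3. Of these 10 genes, 9 were found by symbol among the 21209 gene symbols of the FPKM values, each at 1 locus, and DHX58 was not analysed here. All embryos were produced by in vitro fertilization. Zygotes of the injected pool received siRNA against CDKN1C in the cytoplasm, and those of the sham pool were punctured by the needle without delivery of any RNA. The presence of a small RNA and the knockdown of its target therefore cannot be told apart between these pools. For RNA extraction the paper collected embryos that had become blastocysts, days after the injection, and does not state the stage of the sequenced pools separately. Its blastocyst rate was lower after CDKN1C siRNA than after sham injection. Which embryos reached that stage and how they responded to siRNA cannot be told apart here either. Embryos given GFP siRNA, the control for the injected RNA itself, were not analysed here. The number of embryos in each sequenced pool is not given in the sources used here.

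In mammalian cells, DROSHA cuts microRNA precursors out of primary transcripts in the nucleus, and DICER1, with its partner TARBP2, cuts them to mature length in the cytoplasm. An Argonaute protein then carries the guide strand in the silencing complex, into which a short synthetic siRNA can be loaded without cutting by DROSHA. The same cells read longer or unusual double-stranded RNA as a sign of virus. The helicases DDX58 (RIG-I) and IFIH1 (MDA5) signal through MAVS on mitochondria to the transcription factor IRF3, the kinase EIF2AK2 (PKR) stops translation, and ADAR edits adenosines in duplexes to inosine. DDX58, DHX58, EIF2AK2 and ADAR are also known as genes induced by interferon.

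Values are FPKM, fragments scaled to transcript length and, by upper-quartile normalization, to the library. The RNA was amplified before sequencing, and whether this affected genes unequally was not tested. Comparisons between genes are therefore of FPKM and may not hold for the amount of RNA. A difference is log2 of injected over sham after 1 FPKM was added to each, which shrinks differences at low levels. A ratio is taken on FPKM alone, and at low levels it is uncertain. Differences were taken over the 7984 genes with a mean of 1 FPKM or more in the 2 pools, and a gene was counted when it was at least 2-fold higher or lower on this scale. There is 1 library for each pool, so no difference has a replicate check, an error or a p-value. FPKM gives no read counts, and the depth is unknown.

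Total FPKM was 1051057 in the injected pool and 1384061 in the sham pool, and the median log2 difference of all 7984 genes was -0.17. The targeted gene CDKN1C was 14.6 FPKM in injected embryos against 49.5 FPKM in sham embryos. All 8 trophectoderm markers examined and all 3 epiblast markers had a mean of 1 FPKM or more, and their summed levels were 7647 and 75.7 FPKM in the injected pool against 17555 and 199.9 FPKM in the sham pool. Most of the trophectoderm sum was KRT8 and KRT18, at 1611 and 5389 FPKM in injected embryos against 5760 and 11245 FPKM in sham embryos, while IFNT2, IFNT3 and ELF5 of the same list were higher in injected embryos, at 135, 116 and 4.64 FPKM against 31.1, 32.2 and 3.37 FPKM. The summed hypoblast and oocyte markers were 16.6 and 9.85 FPKM in injected embryos against 15.5 and 24.3 FPKM in sham embryos. Of the 4 blood and immune markers none reached that mean, and 2 of 7 cumulus and granulosa markers did. The part of these markers in the results below was not tested. In whole embryos, fewer cells of a type and less RNA per cell cannot be told apart.

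The genes went both ways between the pools. ADAR was higher after siRNA injection, TARBP2 and IRF3 were lower, and DICER1, DROSHA and MAVS lay within 2-fold. TARBP2 and IRF3 came inside 2-fold when set against genes of like locus span, and ADAR did not. These were the 6 genes with a mean of 1 FPKM or more. EIF2C2, EIF2AK2 and DDX58 had lower means and were described by their values alone. Of the 6 genes, 1 was at least 2-fold higher in the injected pool, where 4.92% of all 7984 genes were, and 2 were at least 2-fold lower, where 15.7% of all genes were. The all-gene counts of 393 higher and 1255 lower were 951 and 597 after scaling both pools to equal total FPKM, and 601 and 707 by locus span. With so few genes these counts are a description of each gene and say nothing particular of the pathway.

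**Figure D1:**
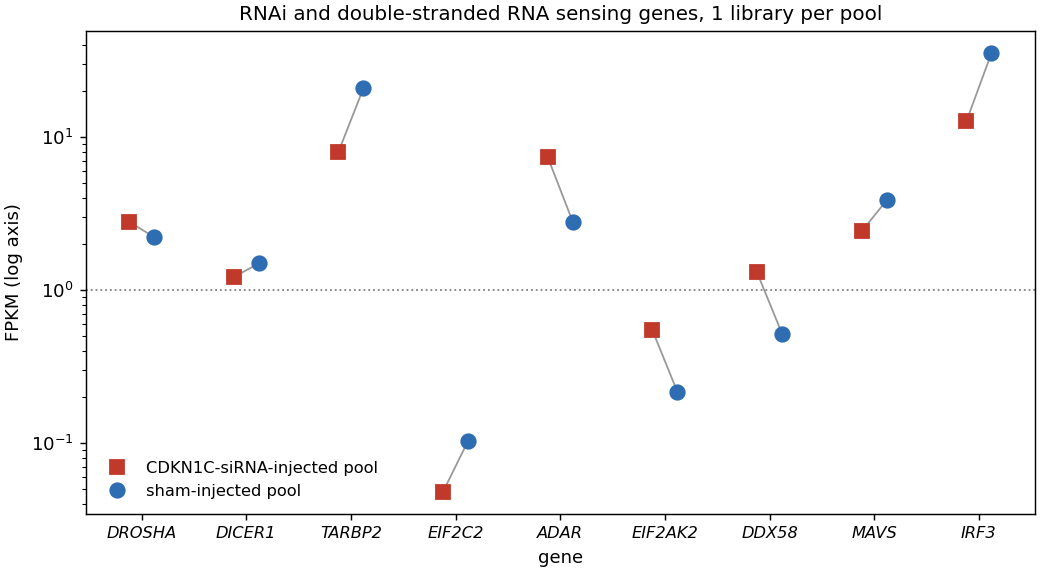
FPKM (vertical, log axis) of 9 genes in the CDKN1C-siRNA-injected pool (red squares) and the sham-injected pool (blue circles), 1 library each; grey lines join the values of a gene and the dotted line marks 1 FPKM. ADAR, EIF2AK2 and DDX58 stand higher in the injected pool by similar ratios, TARBP2 and IRF3 stand lower in it, and DICER1 and DROSHA lie close together.

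DROSHA, the nuclear RNase III enzyme, lies on chromosome 20 of bosTau7 from 44378645 to 44495141. It was 2.80 FPKM in injected embryos against 2.22 FPKM in sham embryos, a log2 difference of 0.24. Among all 7984 genes, 29.8% had a difference as high or higher, so DROSHA lay within the bulk of the transcriptome.

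Other genes of the nuclear steps of microRNA processing and of export differed in direction. Of 8 found, all with a mean of 1 FPKM or more, 1 was at least 2-fold higher, 1 at least 2-fold lower and 6 within 2-fold, with a median log2 difference of 0.23 against -0.17 for all genes. NCBP1, the large subunit of the nuclear cap-binding complex, was 5.40 FPKM in injected embryos against 1.93 FPKM in sham embryos. SRRT (ARS2), which links that complex to microRNA processing, was 4.68 against 12.3 FPKM. The log2 difference of SRRT, -1.23 as deposited, came inside 2-fold at -0.89 with equal total FPKM and -0.95 by locus span, and that of NCBP1, 1.13, was 0.59 with 5 FPKM added. DDX5, an RNA helicase that works with DROSHA, was 65.8 FPKM in injected embryos against 36.6 FPKM in sham embryos. XPO5, the exportin of microRNA precursors, was 1.75 against 2.39 FPKM.

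DICER1, the cytoplasmic RNase III enzyme, lies on chromosome 21 from 60209210 to 60251937. It was 1.22 FPKM in injected embryos against 1.497 FPKM in sham embryos, a log2 difference of -0.17, equal to the median of all genes to 2 decimals. The sign of this difference was not stable, since it was 0.056 after scaling both pools to equal total FPKM. Its level was above that of 65.2% of all symbols in the injected pool and 66.6% in the sham pool, many of which were at or near 0.

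TARBP2, the double-stranded RNA-binding partner of DICER1, lies on chromosome 5 from 29416054 to 29421378. It was 7.99 FPKM in injected embryos against 20.9 FPKM in sham embryos, a ratio of 2.62 in favour of sham and a log2 difference of -1.29. A difference as low or lower was found for 8.45% of all genes. Because both are measured in the same library, TARBP2 can be set against DICER1 without a common scaling factor between pools: the ratio of TARBP2 to DICER1 was 6.56 in the injected pool and 14.0 in the sham pool. These loci differ in span, and the gap between their log2 differences, -1.11 as deposited, was -0.54 after the median of genes of like span was subtracted from each. PRKRA (PACT), the other known double-stranded RNA-binding partner of DICER1 and an activator of EIF2AK2, was 0.371 FPKM in injected embryos against 0.117 FPKM in sham embryos, below a mean of 1 FPKM. TARBP2 thus had the higher FPKM of these partners in both pools.

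EIF2C2 (AGO2), the Argonaute known in mammals for cutting targets paired to an siRNA, lies on chromosome 14 from 2380219 to 2416717. It was 0.0481 FPKM in injected embryos against 0.103 FPKM in sham embryos, far below the mean of 1 FPKM, and no size was read from its difference. EIF2C1 (AGO1) was 4.92 FPKM in injected embryos against 8.35 FPKM in sham embryos, and made up 93.4% and 96.1% of the summed FPKM of the 4 Argonaute genes in these pools. EIF2C3 was 0.0822 against 0.130 FPKM and EIF2C4 was 0.217 against 0.104 FPKM. EIF2C1 therefore held most Argonaute signal in both libraries. The Argonaute genes are related copies, and reads that fit more than 1 of them could have been split by the authors' estimation. Unequal amplification among these genes was not tested either. The shares are therefore of FPKM and may not hold for the amount of RNA.

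Of 13 genes found for the Argonaute proteins and their silencing complex, 9 had a mean of 1 FPKM or more, of which 1 was at least 2-fold higher, 1 at least 2-fold lower and 7 within 2-fold, with a median log2 difference of 0.12. TNRC6C, a GW182 protein through which Argonautes repress messages, was 8.32 FPKM in injected embryos against 3.02 FPKM in sham embryos. MOV10, a helicase found with Argonautes, was 19.0 against 47.1 FPKM. The log2 difference of TNRC6C, 1.21, was 0.73 with 5 FPKM added, and that of MOV10, -1.26, was -0.88 with equal total FPKM. SND1, a nuclease of the Tudor family, had the highest FPKM of the list at 208 against 111 FPKM, a log2 difference of 0.89.

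ADAR, the adenosine deaminase of double-stranded RNA, lies on chromosome 3 from 17117886 to 17146324. It was 7.41 FPKM in injected embryos against 2.79 FPKM in sham embryos, a ratio of 2.65 and a log2 difference of 1.15. A difference as high or higher was found for 247 of 7984 genes, or 3.09%. ADAR stayed at least 2-fold higher with the median difference of all genes set to 0, after scaling both pools to equal total FPKM and against genes of like locus span, at 1.31, 1.47 and 1.16, but with 5 FPKM added in place of 1 it was 0.67. ADARB1 and ADARB2, the related editing genes, were listed at 0 in both pools, which leaves ADAR as the only gene of the 3 with a value.

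Among 12 genes found for the editing and binding of double-stranded RNA, 8 had a mean of 1 FPKM or more, of which 2 were at least 2-fold higher, 1 at least 2-fold lower and 5 within 2-fold, with a median log2 difference of 0.44. Besides ADAR the higher one was ZFR, a zinc finger RNA-binding protein gene, at 6.38 FPKM in injected embryos against 1.998 FPKM in sham embryos, with a log2 difference of 1.30 that was 0.70 with 5 FPKM added. The lower one was TARBP2. The ratio of ADAR to TARBP2 was 0.928 in the injected pool and 0.134 in the sham pool, a 6.95-fold gap on which a common factor for all genes of a pool has no bearing. This pair joins a gene at least 2-fold higher to one at least 2-fold lower, so a wide gap follows from the choice. Injected over sham, the ratio of DROSHA to DICER1 changed 1.55-fold and that of EIF2C1 to DICER1 0.724-fold. On the log2 scale after adding 1 FPKM the gap between ADAR and TARBP2 was 2.44, and 1.96 after the median of genes of like locus span was subtracted from each.

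DDX58, the sensor RIG-I, lies on chromosome 8 from 11619016 to 11664198. It was 1.31 FPKM in injected embryos against 0.518 FPKM in sham embryos, a ratio of 2.52 and a log2 difference of 0.60, with a mean of 0.913 FPKM just under the limit. EIF2AK2, the kinase PKR, lies on chromosome 11 from 20296461 to 20351342 and was 0.548 FPKM in injected embryos against 0.216 FPKM in sham embryos, a ratio of 2.54 and a log2 difference of 0.35. The FPKM ratios of DDX58, EIF2AK2 and ADAR thus lay between 2.52 and 2.65, while the levels of the first 2 were low. With 0.1 FPKM added in place of 1, the log2 differences of DDX58 and EIF2AK2 were 1.19 and 1.04. The EIF2AK2 value is uncertain, because the same locus also holds CCDC75, at 38.4 FPKM in injected embryos against 25.3 FPKM in sham embryos, and LOC100851869, at 0.516 against 0.184 FPKM.

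None of 7 sensors of double-stranded RNA found reached a mean of 1 FPKM. Of these, DDX58 had the highest level in both pools. IFIH1, the sensor MDA5, was 0.174 FPKM in injected embryos against 0.0956 FPKM in sham embryos. TLR3, the endosomal receptor, was 0.00555 FPKM in the injected pool and listed at 0 in the sham pool, and OAS1 and ZBP1 were listed at 0 in both. The number of fragments behind such low values is unknown, so no direction was read for these sensors as a group.

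The kinases of the translation factor eIF2-alpha and their downstream genes lay within 2-fold where the mean was 1 FPKM or more. Of 12 found, 8 had a mean of 1 FPKM or more and none of these was 2-fold higher or lower, with differences from -0.52 to 0.30 and a median of -0.16, which was 0.19 after scaling both pools to equal total FPKM. EIF2AK2 and 3 others were below that mean and were not compared. EIF2AK3 was 0.683 FPKM in injected embryos against 0.315 FPKM in sham embryos, and PRKRIR was 0.164 against 0.0481 FPKM. PPP1R15A went the other way, at 0.208 against 0.904 FPKM. ATF4, the transcription factor of the stress response that follows eIF2-alpha phosphorylation, was 144 FPKM in injected embryos against 207 FPKM in sham embryos. DNAJC3, an inhibitor of EIF2AK2 and its relative EIF2AK3, was 38.1 against 46.0 FPKM. PPP1R15B, which directs the phosphatase that reverses the mark, was 2.90 against 2.26 FPKM, and the adaptor gene NCK1 was 3.08 against 2.32 FPKM.

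MAVS, the mitochondrial adaptor of DDX58 and IFIH1, lies on chromosome 13 from 51725012 to 51737361. It was 2.42 FPKM in injected embryos against 3.87 FPKM in sham embryos, a log2 difference of -0.51, which was -0.34 with the median of all genes set to 0. A difference as low or lower was found for 33.5% of all genes, so MAVS lay well inside the range of most genes.

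IRF3, the transcription factor that MAVS signalling activates by phosphorylation, lies on chromosome 18 from 55970478 to 55976056. It was 12.7 FPKM in injected embryos against 35.4 FPKM in sham embryos, a ratio of 2.79 in favour of sham and a log2 difference of -1.41. A difference as low or lower was found for 487 of 7984 genes, or 6.10%. IRF3 had the highest FPKM of the 9 genes in both pools. The ratio of IRF3 to MAVS within a library was 5.22 in the injected pool and 9.14 in the sham pool. These loci also differ in span. The gap between their log2 differences was -0.90 as deposited and -0.71 after the median of genes of like span was subtracted from each.

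Other genes of MAVS and TLR3 signalling went both ways. Of 19 found, 12 had a mean of 1 FPKM or more, of which 1 was at least 2-fold higher, 2 at least 2-fold lower and 9 within 2-fold, with a median log2 difference of -0.0099, which was 0.35 after scaling both pools to equal total FPKM. Besides IRF3, the lower one was DAK, a dihydroxyacetone kinase known in human cells to bind and inhibit IFIH1, at 0.735 FPKM in injected embryos against 5.29 FPKM in sham embryos, the widest gap of the list. The higher one was ATG12, an autophagy gene whose conjugate with ATG5 is known to dampen DDX58 signalling, at 45.9 against 21.1 FPKM. Both are known as inhibitors. With 5 FPKM added, the log2 differences of DAK and ATG12, -1.86 and 1.08, came inside 2-fold at -0.84 and 0.96.

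**Figure D2:**
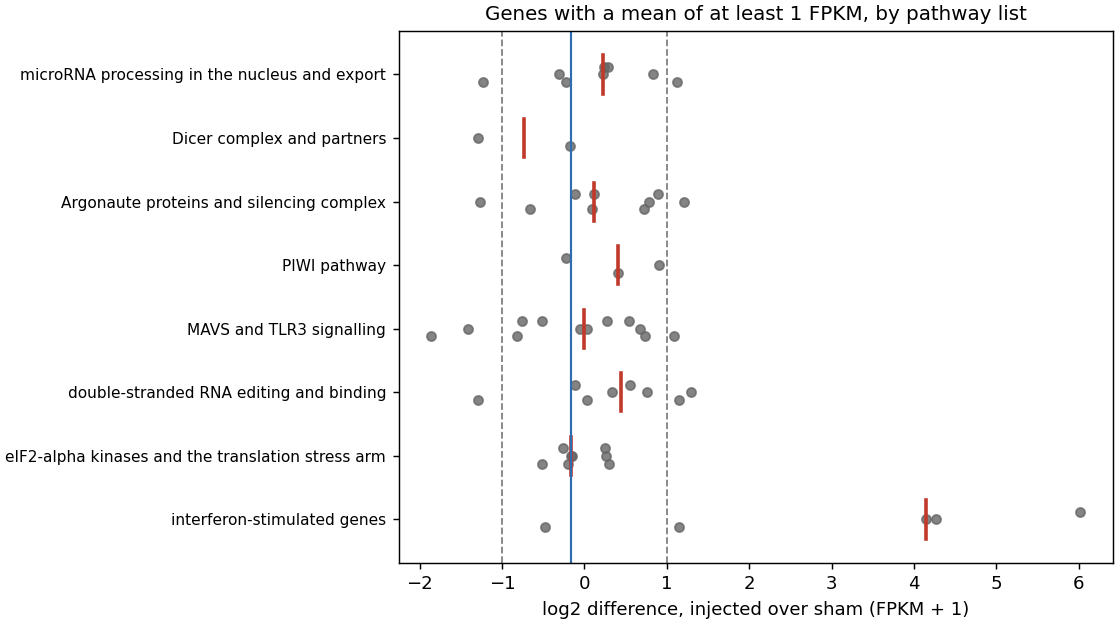
Log2 difference of injected over sham FPKM + 1 (horizontal) for genes with a mean of 1 FPKM or more in 8 lists (rows), 1 library per pool. Each grey point is a gene, red bars are list medians, the blue line is the median of all genes at -0.17 and dashed lines mark 2-fold; the interferon-stimulated genes IFI6, ISG15 and IFI27 stand above 4, while most other genes lie within 2-fold.

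Genes induced by interferon, a group that holds ADAR, DDX58 and EIF2AK2, held the widest gaps among the genes named here. Of 18 found, 5 had a mean of 1 FPKM or more. Of these, 4 were at least 2-fold higher in the injected pool, where 4.92% of all 7984 genes were. They were IFI6 at 337 against 4.22 FPKM, ISG15 at 38.2 against 1.03 FPKM, IFI27 at 22.1 against 0.309 FPKM, and ADAR. The other, IRF9, of the transcription factor complex that interferon activates, was 1.18 against 2.05 FPKM. The first 3 were picked by the study from these same libraries, and their direction gives no independent evidence. The remaining 13 genes had lower means. IFI27 reached the mean of 1 FPKM only through the injected pool, so the count of 4 is partly set by the filter.

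The genes that were lower, TARBP2 and IRF3, have short loci. TARBP2 spans 5.33 kb and IRF3 5.58 kb, whereas MAVS spans 12.4 kb, ADAR 28.4 kb, DICER1 42.7 kb and DROSHA 116 kb. Across genes with 1 locus and a mean of 1 FPKM or more, 26.1% of 2494 genes spanning under 10 kb were lower in injected embryos by at least 2-fold. The share was 16.2% of 2430 genes spanning 10 to 30 kb and 6.75% of 2890 longer genes, and the median log2 differences of these groups were -0.50, -0.20 and 0.092. After the median of the 500 genes nearest in span was subtracted, an alternative chosen after seeing the data, TARBP2 was at -0.79 and IRF3 at -0.92, both inside 2-fold. After scaling both pools to equal total FPKM, TARBP2 was -0.92 and IRF3 -1.04. Both genes stayed below 0 under each of these settings, but only ADAR was past 2-fold in all of them.

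**Figure D3:**
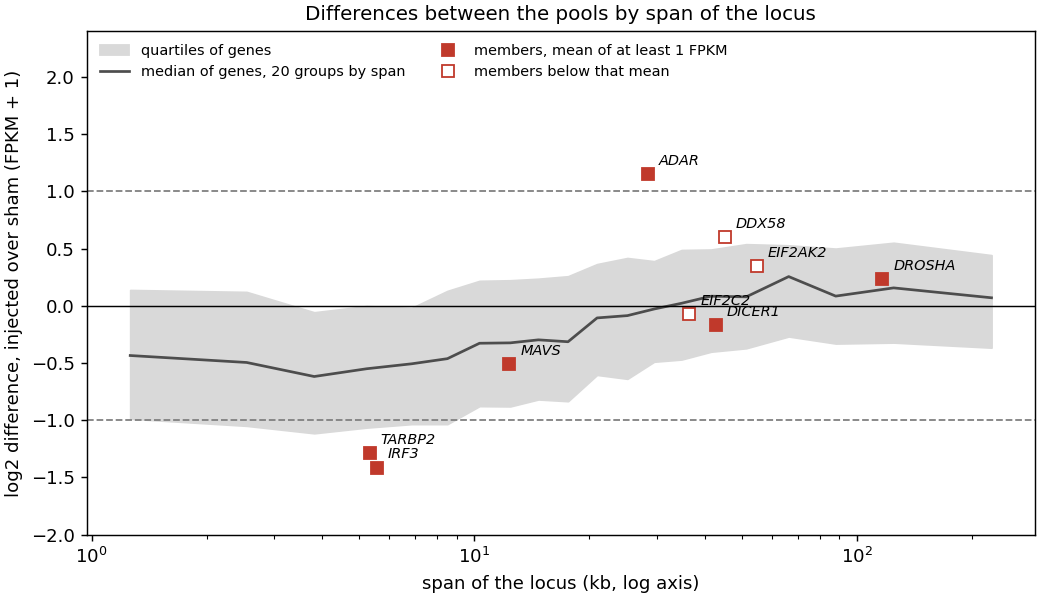
Log2 difference of injected over sham FPKM + 1 (vertical) against the span of the locus in kb (horizontal, log axis). The dark line and grey band are the median and the range from the lower to the upper quartile of genes with 1 locus and a mean of 1 FPKM or more, in 20 groups by span, and squares are the 9 genes, open where the mean is under 1 FPKM. TARBP2 and IRF3 lie at the short end where the line is low, and ADAR lies above the band.

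**Figure D4:**
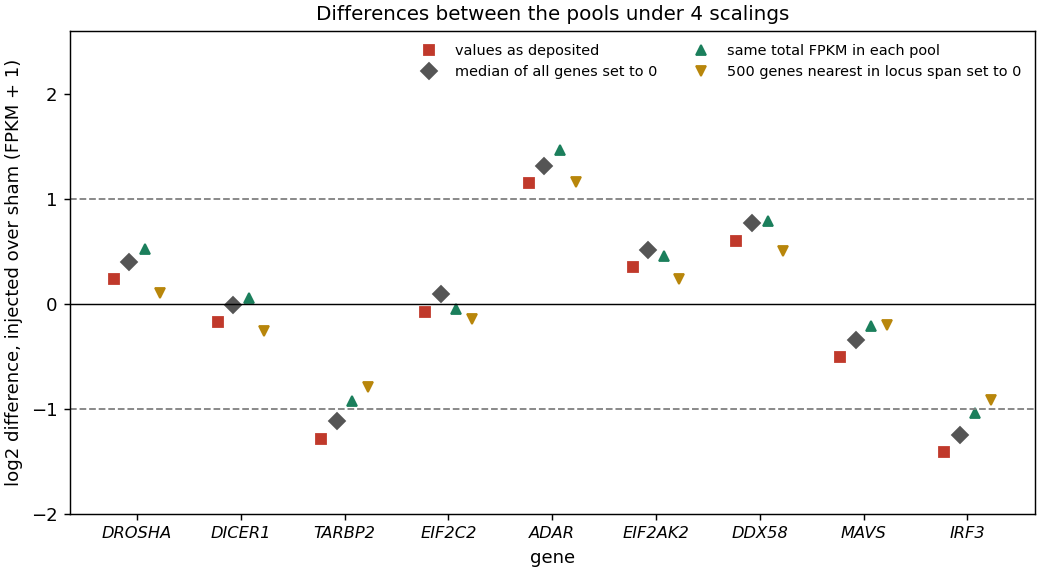
Log2 difference of injected over sham FPKM + 1 (vertical) of 9 genes (horizontal) under 4 scalings: as deposited (squares), median of all genes set to 0 (diamonds), same total FPKM in each pool (upward triangles) and the 500 genes nearest in span set to 0 (downward triangles). Dashed lines mark 2-fold; ADAR stays above 1 throughout, TARBP2 and IRF3 lie between -1.41 and -0.79, and DICER1 and EIF2C2 lie on both sides of 0.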

How the data were processed

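The authors amplified RNA of each embryo pool, sequenced it on an Illumina HiSeq instrument, mapped reads to bosTau7 with TopHat and made the deposited FPKM values with Cufflinks 2.0.2, upper-quartile normalized and corrected for sequence bias. The gene annotation and its strand handling are not given in the sources used here. Each pool has 22220 loci, of which 615 without a symbol were left out. Loci with the same symbol were summed. Because FPKM carries no read counts and each group has 1 library, no test was run. The members and lists were chosen with earlier results of these data known.

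Named are all members, and from each list the genes with a mean of 1 FPKM or more past 2-fold, or, where fewer than 3 were, the 2 highest and 2 lowest. PRKRA, EIF2C3, EIF2C4, ADARB1, ADARB2, IFIH1, TLR3, IRF9, OAS1, ZBP1, EIF2AK3, PRKRIR, PPP1R15A, PIWIL1, PIWIL3, TDRD9, CCDC75 and LOC100851869 were named after their values were seen. Motifs in promoters and proteins were planned and not examined, since no sequences were used here. A gene of the sensor list is not reported here. Alternatives were pseudocounts of 0.1 and 5, other scalings, no filter or a mean of 5 FPKM or more, size rules of 1.5-fold and 4-fold, and the highest locus in place of the sum. The calculation was tested on simulated data. Python 3.11.15, pandas 2.3.3, NumPy 2.4.6 and matplotlib 3.10.9 were used.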

Additional observations from a re-analysis of the deposited data

How the results depend on the processing

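The log2 differences of the 9 genes kept their side of 2-fold in 38 of 45 recomputed values, leaving out the choice of the highest locus, which cannot move genes with 1 locus. The others were DDX58 at 1.19 and EIF2AK2 at 1.04 with a pseudocount of 0.1, TARBP2 at -0.997 and ADAR at 0.67 with a pseudocount of 5, TARBP2 at -0.92 with the same total FPKM, and TARBP2 at -0.79 and IRF3 at -0.92 with the 500 genes nearest in locus span set to 0. The 38 include genes far inside 2-fold from the start, such as EIF2C2 and DICER1, so the count does not measure stability. Each gene past 2-fold as reported, ADAR, TARBP2 and IRF3, came inside it under at least 1 setting. Members at least 2-fold higher and lower numbered 0 and 1 with a pseudocount of 5, 1 and 1 with the same total, 1 and 0 by span, and 0 and 0 by a 4-fold rule, against 1 and 2 as reported. For all genes, 393 higher and 1255 lower became 119 and 598 with a pseudocount of 5, 951 and 597 with the same total, 601 and 707 by span, 1186 and 2436 at 1.5-fold, and 33 and 84 at 4-fold. The higher genes alone moved to 692 with a pseudocount of 0.1, 616 with the median set to 0 and 227 at a mean of 5 FPKM or more. The share of higher genes was 23.8% as reported, 41.1% with the median set to 0, 61.4% with the same total and 45.9% by span, and the same total moved the median of all genes to 0.15.

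Among the lists, 29 of 144 counts moved, each to between 0 and 4 genes. With a pseudocount of 0.1, the higher genes were 2 for the Argonaute list, 1 for the PIWI list and 2 for MAVS signalling, which had 4 lower. With a pseudocount of 5, MAVS signalling had 0 higher and 1 lower, the Dicer list 0 lower, the Argonaute list 0 higher, and the lists of nuclear microRNA processing and of editing 0 either way. With the median set to 0, the higher genes were 2 for the Argonaute and 1 for the PIWI list. With the same total, they were 2 for the nuclear processing, 3 for the Argonaute and 1 for the PIWI list, and the nuclear, Dicer, Argonaute and editing lists had 0 lower. With a mean of 5 FPKM or more, the nuclear list had 0 higher, MAVS signalling 1 lower and the editing list 1 higher. By span, the nuclear list had 2 higher and 0 lower, MAVS signalling 1 lower, and the Dicer and editing lists 0 lower. The median of the interferon-stimulated genes was 4.14 as reported and 0.16 with no filter, where genes near 0 enter, and that of the Dicer list was -0.73 as reported and -1.29 with a mean of 5 FPKM or more, where TARBP2 alone remains. Apart from the constructions named, the cause of these moves was not tested. No paired analysis was possible because each group has 1 library, which also prevents leaving out a replicate.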

Other observations

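The PIWI pathway, the small RNA system of the germ line, was mostly at low levels. Of 12 genes found, 3 had a mean of 1 FPKM or more and 3 others, PIWIL1, PIWIL3 and TDRD9, were listed at 0 in both pools. MAEL, a partner of PIWI proteins, was 6.68 FPKM in injected embryos against 3.11 FPKM in sham embryos, and ASZ1, also of this pathway, was 1.77 against 1.08 FPKM. TDRKH, a Tudor protein of the pathway, was 3.10 FPKM in injected embryos against 3.79 FPKM in sham embryos. None of these was 2-fold higher or lower after adding 1 FPKM, and the median log2 difference was 0.41.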
